A study of Mus musculus with 2 samples.

Results

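Interferon-chemokine blood endothelial cells, the vessel cells that carried transcripts of the chemokines Cxcl9 and Cxcl10, were examined in mouse mammary tumors of the PyMT-M and PyMT-N lines by single-cell RNA sequencing. A barcode counted as a blood endothelial cell when it had at least 1000 genes, at most 10% mitochondrial UMIs (unique molecular identifiers, each standing for 1 captured transcript), at least 5 UMIs of Pecam1, Flt1, Emcn and Kdr together, at most 1 UMI of Krt8, Krt18, Rhox5, Col1a1, Col3a1 and Ptprc together, and no UMI of Prox1. Of 14795 barcodes, 1556 passed this gate, and 200 of these had at least 3 UMIs of Cxcl9 and Cxcl10 together and are called positive cells. The 1144 gated cells without a UMI of either chemokine served as reference cells, and the 212 cells with 1 or 2 UMIs were left between these classes. Since the chemokine counts chose the cells, every ratio of positive to reference cells below is a description, and none was tested.

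PyMT-M and PyMT-N are sublines of the MMTV-PyMT model, in which the mouse mammary tumor virus promoter drives the polyoma middle T antigen in mammary epithelium. In both groups this transgene belongs to the transplanted tumor cells. The study names no transgene for the recipient mice, in which the tumors and their vessels grew. Cells of each line were transplanted into the mammary glands of female C57BL/6 mice aged 6 to 8 weeks, and PyMT-M represents the macrophage-rich (High-MAC) and PyMT-N the Low-MAC state. The labels name no treatment. Endothelial cells were enriched by depletion of CD45+ and Ter119+ cells, capture with CD31 and CD144 antibodies and sorting of CD31+ CD144+ cells. The cells of 3 tumors were pooled into 1 library for each line, so that a cell cannot be traced to a tumor, the spread between animals was not measured and a difference between libraries cannot be told apart from a difference between animals or preparations. The PyMT-M library held 7821 barcodes with 141067264 UMIs and the PyMT-N library 6974 barcodes with 116150425 UMIs, with medians of 18790 and 15878 UMIs per barcode.

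Cxcl9, Cxcl10 and Cxcl11 are interferon-induced CXC chemokines that bind the receptor Cxcr3 on activated T cells and NK cells. Interferons signal through Jak kinases to transcription factors. Genes induced by interferon gamma often carry gamma-activated sites (GAS), and genes induced by type I interferons carry interferon-stimulated response elements (ISRE). Endothelial cells respond to both classes of interferon and can present chemokines on the vessel wall to leukocytes in the blood. Rsad2 encodes viperin, an antiviral enzyme of the radical SAM family.

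Promoter sequences are shown for both chemokines that chose the cells, for Cmpk2 and Rsad2, which ranked highest by their ratio to reference cells, and for Isg15 and Gbp2, described below. The 250 bases before each gene's start were taken from RefSeq on GRCm38.p6, an older build than the mm39 named for the count files, so these coordinates apply to GRCm38.p6 only. Capitals mark matches to the ISRE letters, GAAA and GAAA with any 2 bases between them, on either strand. No match to the GAS letters TTCNNNGAA, searched on both strands, lay in these 6 windows.
Cxcl9 (chr5:92328080-92328329, minus strand): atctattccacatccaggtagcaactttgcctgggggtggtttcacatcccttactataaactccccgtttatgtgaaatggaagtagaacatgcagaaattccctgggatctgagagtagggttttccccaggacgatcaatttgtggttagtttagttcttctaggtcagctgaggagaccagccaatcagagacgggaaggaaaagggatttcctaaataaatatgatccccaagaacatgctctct
Cxcl10 (chr5:92348890-92349139, minus strand): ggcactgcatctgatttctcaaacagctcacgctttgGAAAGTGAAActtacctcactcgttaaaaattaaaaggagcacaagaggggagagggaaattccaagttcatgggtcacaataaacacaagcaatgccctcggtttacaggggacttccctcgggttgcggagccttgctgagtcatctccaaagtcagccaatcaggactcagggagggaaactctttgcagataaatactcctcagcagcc
Rsad2 (chr12:26456453-26456702, minus strand): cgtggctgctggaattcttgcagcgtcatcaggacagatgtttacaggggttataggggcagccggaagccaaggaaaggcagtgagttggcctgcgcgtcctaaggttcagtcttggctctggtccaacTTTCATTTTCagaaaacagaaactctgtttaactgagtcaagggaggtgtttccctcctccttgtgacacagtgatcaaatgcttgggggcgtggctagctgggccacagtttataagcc
Cmpk2 (chr12:26468965-26469214, plus strand): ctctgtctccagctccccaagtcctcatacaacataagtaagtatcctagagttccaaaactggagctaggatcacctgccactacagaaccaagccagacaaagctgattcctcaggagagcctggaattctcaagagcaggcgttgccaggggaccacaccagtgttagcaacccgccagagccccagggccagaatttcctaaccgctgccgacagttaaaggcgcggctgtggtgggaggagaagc
Isg15 (chr4:156200819-156201068, minus strand): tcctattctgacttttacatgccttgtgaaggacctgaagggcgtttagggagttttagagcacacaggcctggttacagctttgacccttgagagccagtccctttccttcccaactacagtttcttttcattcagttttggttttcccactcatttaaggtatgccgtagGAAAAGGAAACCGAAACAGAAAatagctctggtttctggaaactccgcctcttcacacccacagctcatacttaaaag
Gbp2 (chr3:142620413-142620662, plus strand): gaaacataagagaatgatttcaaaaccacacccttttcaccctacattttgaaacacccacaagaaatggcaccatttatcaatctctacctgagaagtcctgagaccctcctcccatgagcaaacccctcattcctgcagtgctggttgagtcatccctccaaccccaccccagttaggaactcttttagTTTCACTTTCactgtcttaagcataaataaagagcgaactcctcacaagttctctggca

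The Cxcl10 window held 1 ISRE match, whose last base lay 204 bases before the start, and the Cxcl9 and Cmpk2 windows held none. In Rsad2 the match ended 111 bases and in Gbp2 50 bases before the start. Isg15 held 3 overlapping matches, which share bases and read as 1 stretch of capitals. Of the 5 highest genes, Cmpk2, Isg20, Ifit2 and Oasl1 held no ISRE match in any of their windows, and Isg20 and Ifit2 held 1 GAS match each. A match is a run of letters and was not tested as a bound site, and an absent match says only that these letters are not in the window.

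Positive cells made up 19.4% of the blood endothelial cells of the PyMT-M library (108 of 558, exact Clopper-Pearson 95% interval 16.2 to 22.9%). In PyMT-N they made up 9.22% (92 of 998, interval 7.50 to 11.2%). The share was 10.1 percentage points higher in PyMT-M (interval of the difference 6.38 to 14.1). All intervals given here cover counting error only. Among cells just below the limit, 36 PyMT-M and 30 PyMT-N cells had 2 UMIs, and just above it 24 and 12 cells had 3 UMIs.

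The gated cells of PyMT-M had a median of 5280.5 UMIs, under the median of 12439 in PyMT-N. After thinning of every cell to 3000 UMIs, the expected share was 14.9% in PyMT-M and 4.77% in PyMT-N, with 88 and 7 shallower cells left out. After thinning to 5000 UMIs, 19.5% and 6.05% of the cells were positive, with 261 and 44 cells left out. The PyMT-M share was thus the higher one at each depth examined.

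**Figure D1:**
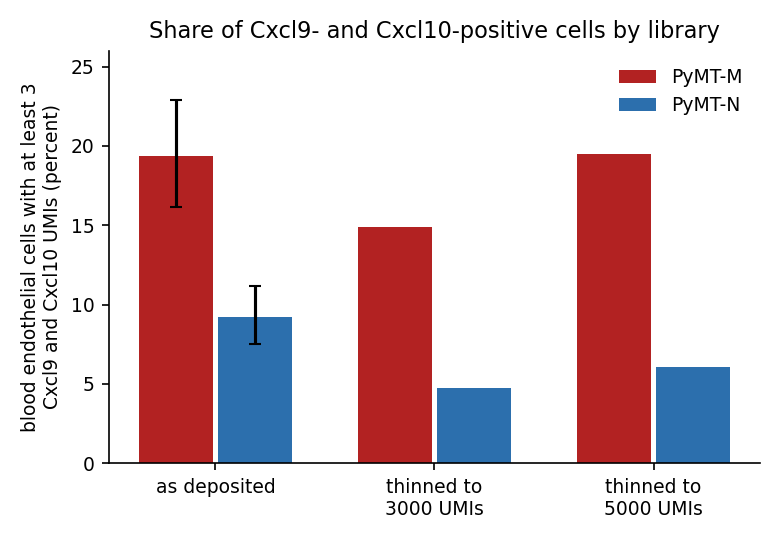
Share of gated blood endothelial cells with at least 3 Cxcl9 and Cxcl10 UMIs (y axis, percent) in the PyMT-M and PyMT-N libraries, as deposited and computed for thinning of each cell to 3000 or 5000 UMIs. Error bars are exact 95% binomial intervals and were drawn for the deposited counts only, where PyMT-M stood at 19.4% and PyMT-N at 9.22%.

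Chemokine transcripts were concentrated in few cells. The positive cells held 933 Cxcl9 and 780 Cxcl10 UMIs in PyMT-M, and 1379 and 864 UMIs in PyMT-N. A positive cell had a median of 8 chemokine UMIs in PyMT-M, from 3 to 157. In PyMT-N the median was 11, from 3 to 238. In PyMT-M the 10 highest cells held 43.6% of these UMIs, and in PyMT-N 49.0%. Summed chemokine levels thus rest largely on few cells. As counts per 1000000 UMIs (CPM), summed over positive cells, Cxcl9 stood at 1276 in PyMT-M and 1080 in PyMT-N. Cxcl10 stood at 1067 and 677 CPM.

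Cells with both chemokines were the largest class in PyMT-M and cells with Cxcl9 alone the largest in PyMT-N. In PyMT-M, 55 positive cells (50.9%) carried both, 46 (42.6%) carried Cxcl9 without Cxcl10 and 7 (6.48%) carried Cxcl10 without Cxcl9. In PyMT-N these were 32 (34.8%), 44 (47.8%) and 16 cells (17.4%). The third ligand of Cxcr3, Cxcl11, had 27 UMIs in positive and none in reference cells of PyMT-M, which is at least 21.1-fold higher against a floor of 3 UMIs summed over all reference cells. In PyMT-N it had 45 UMIs in positive cells and 1 UMI in reference cells.

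Cells of other types in the same libraries were counted in the same way, and the part of free RNA in these UMIs was not tested. In tumor cells, taken by their epithelial UMIs, 4.96% of PyMT-M and 1.30% of PyMT-N cells reached 3 chemokine UMIs, at medians of 26099.5 and 20860 UMIs per cell. At 3000 UMIs per cell, tumor cells stood at 1.10% and 0.488%, under the 14.9% and 4.77% of blood endothelial cells. Of myeloid cells, 14.1% (interval 8.55 to 21.3%) and 10.4% (5.79 to 16.8%) reached 3 chemokine UMIs, at medians of 3845 and 14749 UMIs. These intervals held the shares of blood endothelial cells. At 3000 UMIs per cell, myeloid cells stood at 12.2% and 2.97%.

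The ratio of both chemokines was highest in blood endothelial cells among the types with UMIs of both. Blood endothelial cells had 1.32 Cxcl9 UMIs for each Cxcl10 UMI in PyMT-M and 1.65 in PyMT-N. The ratio was 0.0669 and 0.136 in tumor cells, and 0.0772 and 0.186 in myeloid cells. In fibroblasts it was 0.284 in PyMT-M and 1.08 in PyMT-N, the latter from 26 Cxcl9 and 24 Cxcl10 UMIs. Cxcl9 stood at 333 and 109 CPM in all gated blood endothelial cells, at 30.1 and 26.7 CPM in myeloid cells and at 1.75 and 1.44 CPM in tumor cells. Cxcl10 was at 253 and 66.0 CPM in gated blood endothelial cells and at 390 and 144 CPM in myeloid cells, so that its level was higher in the myeloid cells of both libraries. Lymphatic endothelial cells of PyMT-N, 162 in number, had 2.35 CPM of Cxcl9 and 52.6 CPM of Cxcl10.

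Endothelial transcripts were required of positive and reference cells alike, by at least 5 UMIs of Pecam1, Flt1, Emcn and Kdr. None of the 18 pan-endothelial genes, all ranked (at least 100 UMIs over positive and reference cells in each library), was past 2-fold in both libraries. Of these, 12 were lower and 3 higher in both, beside 36.9% and 23.6% of all 4360 ranked genes, and their median log2 ratio to reference cells was -0.08 in PyMT-M and -0.10 in PyMT-N. Cdh5, the VE-cadherin of adherens junctions, stood at 997 CPM in positive and 983 CPM in reference cells of PyMT-M. In PyMT-N it stood at 1338 and 1233 CPM. Ptprb, the VE-PTP phosphatase, was lower in positive cells, with log2 ratios of -0.86 (interval -1.04 to -0.68) in PyMT-M and -0.53 (-0.68 to -0.39) in PyMT-N. Clec14a, an endothelial C-type lectin, had log2 ratios of -1.42 and -0.53.

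Markers of myeloid, lymphoid, tumor epithelial and fibroblast cells were scarce in positive cells, in part because the gate used Ptprc, keratin and collagen counts. Pericyte genes were not scarce, mostly through Mcam. The 15 macrophage and myeloid genes summed to 36.9 CPM in positive and 38.0 CPM in reference cells of PyMT-M, and to 36.0 and 39.5 CPM in PyMT-N. Of these genes, 9 in PyMT-M and 7 in PyMT-N had no UMI in positive cells, among them Csf1r, Adgre1 and Itgam, and the most abundant was Coro1a in PyMT-M and Laptm5 in PyMT-N. All 12 T and NK cell genes were without a UMI in positive cells, which allows up to 4.10 CPM in PyMT-M and 2.35 CPM in PyMT-N. The 10 tumor epithelial genes summed to 75.2 against 74.8 CPM in PyMT-M and to 35.3 against 38.5 CPM in PyMT-N, mostly Spint2. Pericyte genes, mostly Mcam, summed to 425 against 400.1 CPM and to 845 against 873 CPM. Fibroblast genes summed to 10.9 against 12.9 CPM and to 15.7 against 12.1 CPM, and B cell genes to 2.73 against 8.76 CPM and to 2.35 against 1.56 CPM. Lymphatic genes summed to 111 against 47.3 CPM in PyMT-M, where all 18 UMIs of Ccl21a lay in 1 positive cell, and to 111 against 185 CPM in PyMT-N. Hemoglobin and platelet genes summed to 131 against 3.51 CPM in PyMT-M, where 1 positive cell held most of the UMIs, and to 6.27 against 35.0 CPM in PyMT-N.

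Positive cells were deeper than reference cells in PyMT-M, with medians of 6082 and 4642 UMIs, and slightly shallower in PyMT-N, with 11687.5 and 12447.5 UMIs. Their median mitochondrial share was 2.61% against 3.14% in PyMT-M and 2.93% against 3.15% in PyMT-N. Scrublet called no positive cell a doublet, and none was among the 6% of barcodes with the highest doublet scores. In PyMT-M the caller did not work, with 1 call among 7821 barcodes, so the absence of calls says nothing of those cells. Of the barcodes, 20 occurred in both libraries, and no positive cell was among them. The part of depth in these results was examined by reweighting of reference cells, given in the closing part.

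Across the transcriptome, 4360 genes other than Cxcl9 and Cxcl10 had at least 100 UMIs over positive and reference cells in each library and were ranked. In PyMT-M, 56 of these (1.28%) were at least 2-fold higher and 75 (1.72%) at least 2-fold lower in positive cells. In PyMT-N, 111 (2.55%) were at least 2-fold higher and 20 (0.459%) at least 2-fold lower. In both libraries, 46 genes (1.06%) were at least 2-fold higher and 10 (0.229%) at least 2-fold lower. The median log2 ratio over all ranked genes was -0.04 in PyMT-M and -0.04 in PyMT-N. Any gene that is high in positive cells could reach 100 UMIs through these cells, and 23 of the 46 higher genes had fewer than 100 UMIs in the reference cells of at least 1 library. Among the 3255 genes with at least 100 UMIs in the reference cells of each library, the other 23 (0.707%) were at least 2-fold higher in both. The antiviral list held 14 and the list of interferon-induced GTPases 7 of the 46 higher genes. Counts of gene lists below stand against 1.06% of all ranked genes. By any amount, 1029 ranked genes (23.6%) were higher and 1608 (36.9%) lower in both libraries.

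**Figure D2:**
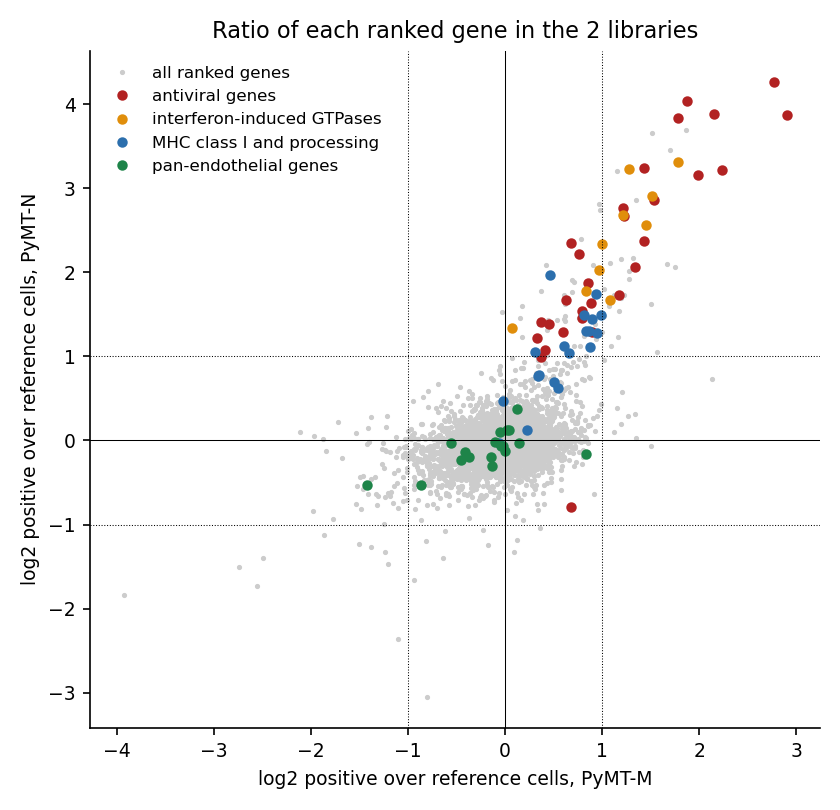
Log2 ratio of summed levels in positive over reference cells in PyMT-M (x axis) and PyMT-N (y axis) for 4360 ranked genes, 1 point for each gene, with dotted lines at 2-fold. Antiviral and interferon-induced GTPase genes lie mostly in the upper right and pan-endothelial genes near 0, and ratios of the interferon genes were mostly larger in PyMT-N than in PyMT-M.

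Rsad2 was the third marker of these cells and was not used to choose them. It stood at 730.2 CPM in positive and 107 CPM in reference cells of PyMT-M, a log2 ratio of 2.77 (interval 2.53 to 3.02). In PyMT-N it stood at 845 and 43.8 CPM, a log2 ratio of 4.27 (4.11 to 4.43). A UMI of Rsad2 was found in 63.0% of positive and 29.0% of reference cells of PyMT-M, and in 68.5% and 23.7% of those of PyMT-N. In tumor cells, a Rsad2 UMI was found in 21.8% of PyMT-M and 4.15% of PyMT-N cells, at higher depth. At 3000 UMIs per cell, the expected shares were 52.2% of positive, 21.6% of reference and 6.47% of tumor cells in PyMT-M. In PyMT-N these were 50.5%, 9.54% and 1.68%. At equal depth reference cells thus stood between tumor and positive cells. Of the Rsad2 UMIs of positive cells, 1 cell held 13.9% in PyMT-M and 10.3% in PyMT-N.

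Genes of the antiviral response were the largest group among the higher genes. Of 35 listed antiviral genes, 29 were ranked, and 14 were at least 2-fold higher in both libraries and none was at least 2-fold lower in either. The median log2 ratio of the 29 was 0.89 in PyMT-M and 2.06 in PyMT-N. With genes kept by their reference-cell UMIs alone, 9 of 23 were past 2-fold, and the medians were 0.86 and 1.67. Cmpk2, a mitochondrial nucleotide kinase that supplies substrate to viperin and had the highest ratio of all ranked genes by the library where it was smaller, stood at 161 against 21.6 CPM in PyMT-M, a log2 ratio of 2.90 (2.36 to 3.47). It had 118 UMIs in positive and 37 in reference cells there, so that it was ranked through its positive cells. In PyMT-N it stood at 159 against 10.9 CPM, a log2 ratio of 3.87 (3.53 to 4.21). Isg15, a ubiquitin-like modifier, stood at 1236 against 427 CPM (log2 ratio 1.53, 1.39 to 1.68) in PyMT-M. In PyMT-N it stood at 749 against 103 CPM (2.87, 2.74 to 2.99). A UMI of Isg15 was found in 92.6% of positive and 67.4% of reference cells of PyMT-M, against 80.4% and 47.7% of those of PyMT-N. In tumor cells, at higher depth, these shares were 61.5% and 36.8%.

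Ifit genes encode tetratricopeptide proteins that bind foreign RNA or its complexes. Ifit2 stood at 365 against 82.4 CPM in PyMT-M and at 472 against 32.0 CPM in PyMT-N. Ifit3 stood at 511 against 140 CPM in PyMT-M and at 392 against 23.9 CPM in PyMT-N, a log2 ratio of 1.87 in the former and 4.04 in the latter. Ifit1 had log2 ratios of 1.44 and 3.24. Ifit3b, a close copy of Ifit3 with which reads can be shared, had log2 ratios of 1.79 and 3.84, and the split between both genes is uncertain, as it is within the Gbp, Ifi200, H2-Q and Apol9 families. Isg20, an exonuclease, had log2 ratios of 2.24 and 3.21, and Oasl1, of the oligoadenylate synthetase-like family, had 1.99 and 3.16.

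Not every antiviral gene followed. Ifitm3, which blocks the entry of enveloped viruses, stood at 5251 against 4062 CPM in PyMT-M and 3783 against 1897 CPM in PyMT-N, log2 ratios of 0.37 and 1.00. Ifitm3 was the most abundant member of the list in positive cells of both libraries. The whole list summed to 16298 against 9231 CPM in PyMT-M and to 12152 against 3834 CPM in PyMT-N. Summed antiviral levels below thus rest in large part on Ifitm3. Ifi27l2a stood at 413 against 257 CPM in PyMT-M (log2 ratio 0.68, 0.47 to 0.90). In PyMT-N it was nearly absent, at 5.48 against 9.52 CPM (-0.80, -2.15 to 0.30), and was the one ranked member not higher in both libraries.

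Within single cells, the summed antiviral level of positive cells ran from 3114 to 44195 CPM with a median of 15471 in PyMT-M, against 799.7 to 29259.9 with a median of 8790.5 in reference cells. In PyMT-N it ran from 1519 to 39068 with a median of 10549, against 184 to 18726 with a median of 3341. The classes overlapped in both libraries, and 10.7% of reference cells in PyMT-M and 3.55% in PyMT-N stood above the median of the positive cells.

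GTPases induced by interferon gamma, which attack the vacuoles of intracellular pathogens, had 10 ranked members of 18. Of these, 7 were at least 2-fold higher in both libraries, and the median log2 ratio was 1.15 in PyMT-M and 2.45 in PyMT-N. Kept by reference-cell UMIs alone, 5 of 7 were past 2-fold, with medians of 1.21 and 2.56. Gbp2, a guanylate-binding protein, stood at 267 against 77.7 CPM in PyMT-M (log2 ratio 1.78, 1.45 to 2.11) and at 320.4 against 32.3 CPM in PyMT-N (log2 ratio 3.31). Iigp1, an immunity-related GTPase, stood at 602 against 249 CPM in PyMT-M and at 560.1 against 59.9 CPM in PyMT-N. Igtp and Ifi47, of the same family, had log2 ratios of 1.52 and 1.45 in PyMT-M and of 2.90 and 2.56 in PyMT-N. Gbp9 stood at 47.9 against 45.6 CPM in PyMT-M and at 66.6 against 26.3 CPM in PyMT-N, the lowest ratios of the list.

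**Figure D3:**
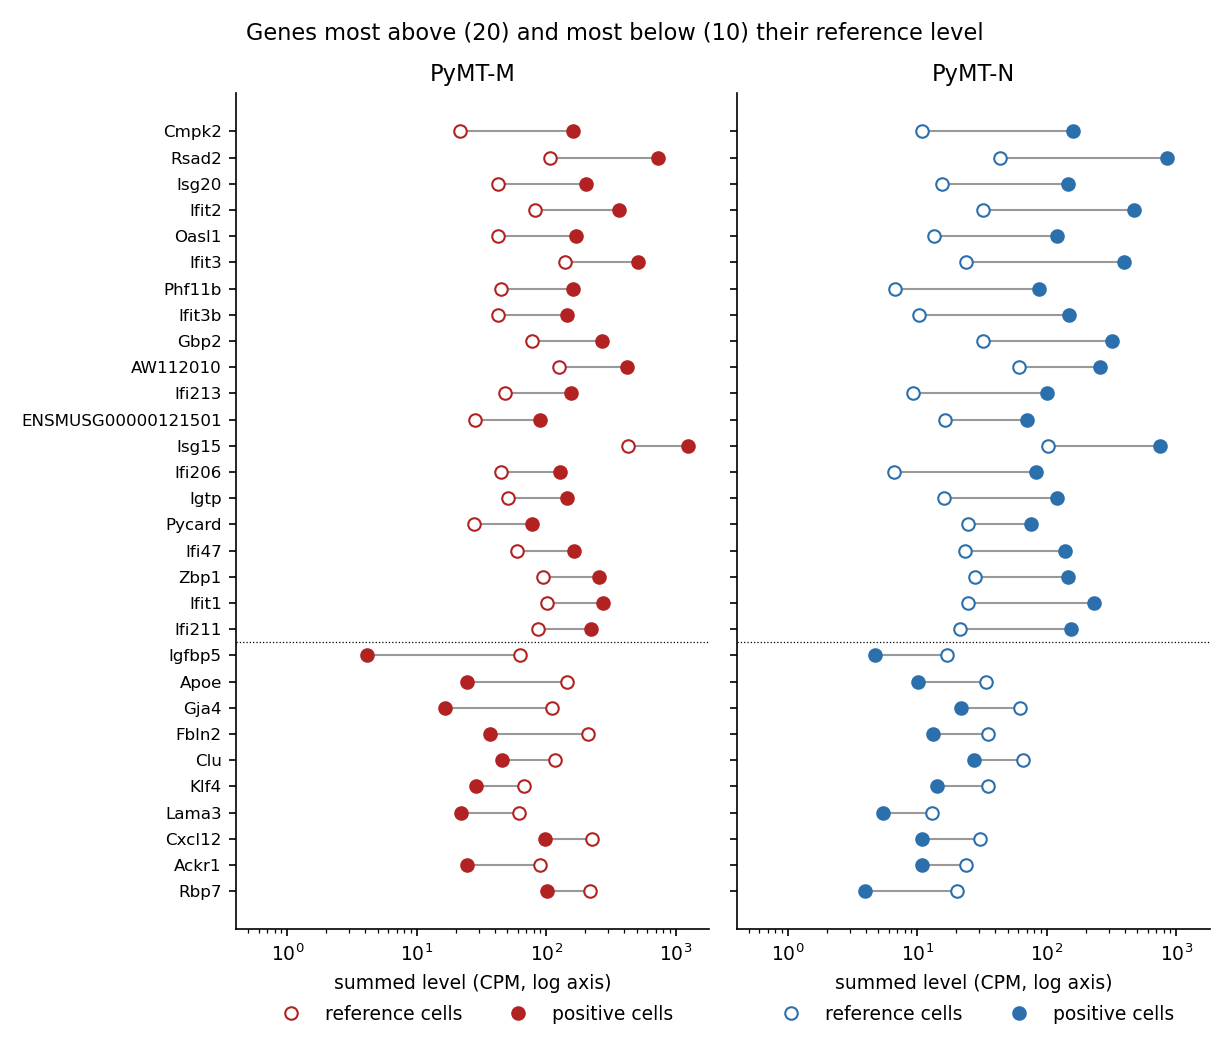
Summed level (x axis, CPM, log axis) of the 20 ranked genes most above and the 10 most below their reference level, in positive cells (filled) and reference cells (open) of PyMT-M and PyMT-N. Reference levels of the interferon genes were higher in PyMT-M than in PyMT-N (Isg15 427 against 103 CPM), and the lower genes rest on few UMIs.

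Sensors and signal carriers of the interferon pathway were higher in part. Of 8 ranked genes in the list of RNA and DNA sensors, 1 was past 2-fold in both libraries, Ifih1 (MDA5), with log2 ratios of 1.02 and 1.80. The genes named next lay outside this list and were among the 20 with the highest ratios, so they are high by choice and add nothing to its count. Zbp1, a Z-nucleic acid sensor, had 1.44 and 2.37. Ifi211, Ifi213 and Ifi206 of the PYHIN family had 1.35, 1.70 and 1.52 in PyMT-M. In PyMT-N these had 2.86, 3.45 and 3.66. Pycard, the inflammasome adaptor ASC, had 1.51 and 1.62.

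Of 16 ranked genes of interferon and Jak-Stat signaling, 2 were at least 2-fold higher in both libraries, Irf8 among them, and the median log2 ratio was 0.26 in PyMT-M and 0.26 in PyMT-N. Irf8, an interferon regulatory factor, stood at 176 against 59.6 CPM and at 165 against 79.8 CPM. Irf7, which amplifies type I interferon responses, had log2 ratios of 0.98 and 2.74, Irf1 0.63 and 1.07, and Stat2 0.38 and 1.78. The receptor chain Ifngr1 stood at 97.1 against 98.1 CPM in PyMT-M and at 121 against 114 CPM in PyMT-N. Ifnar1 had log2 ratios of 0.48 and -0.08, Socs3 -0.43 and -0.02 and Stat3 -0.33 and 0.06. No UMI of Ifng or Ifnb1 was found in positive cells of either library, which allows up to 4.10 CPM in PyMT-M and 2.35 CPM in PyMT-N for each gene.

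Most MHC class I genes were moderately higher. Of 19 ranked genes in the list of class I and antigen processing, none was at least 2-fold higher in both libraries, 17 were higher in both by any amount, beside 23.6% of all ranked genes, and the median log2 ratio was 0.61 in PyMT-M and 1.11 in PyMT-N. Psmb10, a subunit of the immunoproteasome, had log2 ratios of 0.99 (0.71 to 1.27) and 1.50 (1.29 to 1.69). H2-T22, a non-classical class I chain, had 0.93 and 1.74. H2-Q6, a class I chain that was not in the list, was past 2-fold, at 465 against 222 CPM in PyMT-M (log2 ratio 1.07, 0.85 to 1.28) and 208 against 68.9 CPM in PyMT-N (1.60, 1.39 to 1.80). B2m, the light chain of class I, stood at 3706 against 2607 CPM in PyMT-M and at 2497 against 1544 CPM in PyMT-N. Calr and Pdia3, chaperones of the endoplasmic reticulum, had log2 ratios of 0.22 and -0.06 in PyMT-M, and of 0.12 and -0.03 in the other library.

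MHC class II genes were nearly absent. No class II gene was ranked, and the 7 genes summed to 17.8 CPM in positive and 31.0 CPM in reference cells of PyMT-M and to 21.9 and 12.1 CPM in PyMT-N. The class II transactivator Ciita stood at 1.37 CPM in PyMT-M and 0.783 CPM in PyMT-N positive cells.

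Other chemokines went in both directions. Beside Cxcl11, given above, the 10 monocyte and neutrophil chemoattractants summed to a higher level in positive cells, although none had enough UMIs to be ranked. The log2 ratios of the sums were 0.94 (0.67 to 1.21) in PyMT-M and 1.19 (0.74 to 1.61) in PyMT-N. In PyMT-M the sum was mostly Ccl2, with 157 of 204 UMIs in positive and 153 of 249 UMIs in reference cells. In PyMT-N the list had 58 UMIs in positive cells, and Csf1 was its most abundant member there. The sums were not taken without these genes. Cxcl12, the ligand of Cxcr4, was lower in positive cells, at 98.5 against 227 CPM in PyMT-M (log2 ratio -1.20, -1.59 to -0.84) and at 10.97 against 30.4 CPM in PyMT-N (-1.47, -2.36 to -0.70). Ccl2, which attracts monocytes, stood at 215 against 89.4 CPM in PyMT-M and at 7.83 against 6.50 CPM in PyMT-N. It was too scarce in PyMT-N to be ranked. Ccl5, which attracts T cells, stood at 4.10 CPM in PyMT-M and 90.9 CPM in PyMT-N positive cells, where 1 cell held 95.7% of the 116 UMIs. Ackr1, which binds and transports chemokines in venules, had a lower summed level, with log2 ratios of -1.86 in PyMT-M and -1.12 in PyMT-N. In PyMT-M 1 cell held 50% of its positive-cell UMIs, and in PyMT-N 57.1%. A UMI of Ackr1 was found in 5.56% of positive and 8.54% of reference cells of PyMT-M. In PyMT-N these shares were nearly equal, at 6.52% and 6.62%.

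Among adhesion molecules, 1 of 7 ranked genes, Vcam1, was past 2-fold in both libraries. Its 88 reference-cell UMIs in PyMT-M were under the minimum, and of the 6 genes kept by reference-cell UMIs alone none was past 2-fold. Vcam1, which binds integrins of lymphocytes and monocytes, stood at 118 against 51.4 CPM in PyMT-M (log2 ratio 1.19, 0.75 to 1.64) and at 52.5 against 16.2 CPM in PyMT-N (1.70, 1.27 to 2.11). Icam1 stood at 65.6 against 63.7 CPM and at 28.2 against 20.5 CPM, intervals that include equality. Selp, the selectin of leukocyte rolling, was lower in PyMT-M (log2 ratio -1.53, -2.10 to -1.01) and stood at 0.09 (-0.36 to 0.52) in PyMT-N. Jam2 was lower in both, with log2 ratios of -0.80 and -0.77, and Cd47 higher, with 0.58 and 0.52.

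Genes that act on T cells were higher in part. Of 5 ranked genes, Tnfsf10 (TRAIL) was past 2-fold, at 126 against 54.3 CPM in PyMT-M and 118 against 35.6 CPM in PyMT-N. It had 93 reference-cell UMIs in PyMT-M, and of the 3 genes kept by reference-cell UMIs alone none was past 2-fold. Lgals9, the galectin-9 ligand of Tim-3, had log2 ratios of 0.77 (0.61 to 0.93) and 1.12 (1.01 to 1.23). Cd274, which encodes PD-L1, was too scarce to be ranked, with 45 UMIs in positive cells of PyMT-M and 47 in PyMT-N. It stood at 61.5 against 8.76 CPM in PyMT-M (log2 ratio 2.81) and at 36.8 against 2.75 CPM in PyMT-N (3.75), and 1 cell held 31.1% of the PyMT-M UMIs. Cfb, complement factor B, stood at 186 against 114 CPM and at 72.1 against 19.5 CPM.

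Genes of the TNF and NF-kB response stood near the background of all genes. None of 7 ranked genes was past 2-fold in both libraries, with median log2 ratios of 0.15 and -0.01. Of 16 ranked immediate early and dissociation stress genes, none was at least 2-fold higher and 1, Klf4, was at least 2-fold lower in both, and the median was -0.04 in PyMT-M and 0.13 in PyMT-N. Klf4 and Klf2 are transcription factors induced by laminar flow. Klf4 stood at 28.7 against 67.8 CPM and at 14.1 against 35.4 CPM. Klf2 had log2 ratios of -0.87 (-1.18 to -0.57) and -0.95 (-1.23 to -0.69).

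The 10 lower genes included markers of arteries and of venules. Gja4, the connexin 37 of arterial endothelium, stood at 16.4 against 110.0 CPM in PyMT-M and at 21.9 against 62.3 CPM in PyMT-N, and 1 cell held 58.3% and 60.7% of its positive-cell UMIs. Rbp7, a retinol-binding protein that was in none of the vessel-type lists, stood at 101 against 218 CPM and at 3.92 against 20.1 CPM. Apoe, a lipid carrier, stood at 24.6 against 144 CPM and at 10.2 against 33.8 CPM. Clu, an extracellular chaperone, stood at 45.1 against 117 CPM and at 27.4 against 65.9 CPM. Igfbp5 rested on 1 positive cell in each library, and Fbln2 and Lama3, matrix proteins, had log2 ratios of -2.50 and -1.50 in PyMT-M, and of -1.40 and -1.23 in the other library.

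As lists, 5 of 6 ranked arterial genes were lower in both libraries, beside 36.9% of all ranked genes, with a median log2 ratio of -0.62 in PyMT-M and -0.28 in PyMT-N. Of 5 ranked capillary genes, none was past 2-fold in both, with medians of -0.62 and -0.15, and Rgcc was higher at 0.58 and 0.57. Of 7 ranked venous genes, Vcam1 was higher and Ackr1 lower past 2-fold, and the medians were -1.05 and -0.17. Of the 5 kept by reference-cell UMIs alone, which leave out Vcam1, none was higher past 2-fold, with medians of -1.38 and -0.41. None of 14 ranked tip cell genes was past 2-fold in both, with medians of 0.47 and -0.02.

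Rsad2 and the summed interferon lists were highest in the cells with most chemokine UMIs, whereas Gbp2 in PyMT-M stood at 340.4 CPM at 5 to 9 UMIs and 319 CPM at 10 or more. Rsad2 stood at 107, 201, 202, 229, 330 and 1193 CPM in PyMT-M cells with 0, 1, 2, 3 to 4, 5 to 9 and at least 10 chemokine UMIs. In PyMT-N it stood at 43.8, 94.7, 173, 113, 563 and 1363 CPM in the same bins. Cells just inside the limit of 3 UMIs were not above those just outside it in every measure. The summed GTPase level was 1953 CPM (1756 to 2166) at 2 UMIs and 1551 CPM (1406 to 1708) at 3 to 4 UMIs in PyMT-M, and 707 and 646 CPM in PyMT-N. The highest Rsad2 levels stood in the 50 PyMT-M and 49 PyMT-N cells with at least 10 UMIs. The summed antiviral level ran from 9231 CPM at 0 UMIs to 19334 CPM at 10 or more in PyMT-M and from 3834 to 16243 CPM in PyMT-N. MHC class I ran from 10274 to 16724 CPM and from 6002 to 11674 CPM. The pan-endothelial level stayed between 9579 and 11298 CPM in PyMT-M and between 8780.4 and 10529.5 CPM in PyMT-N. The bins were cut on the chemokine counts and their order was not tested.

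**Figure D4:**
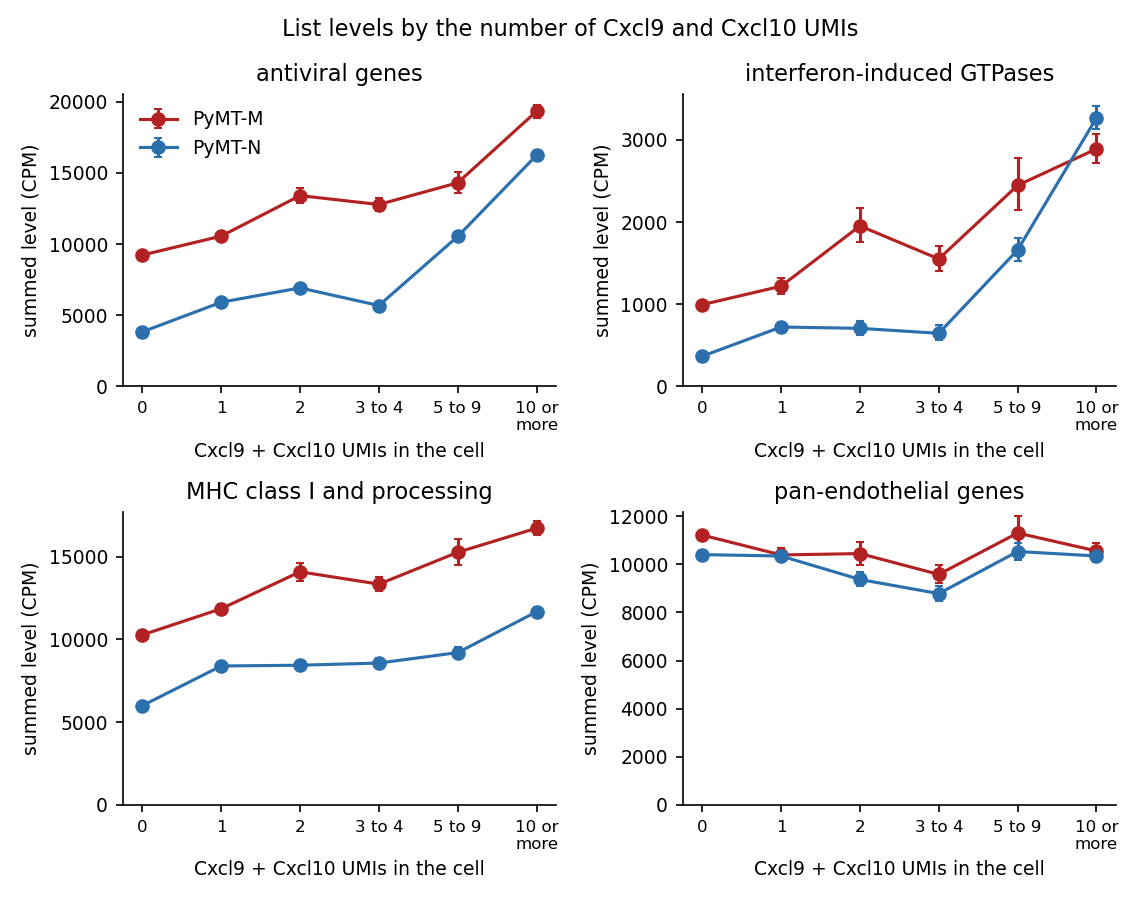
Summed level of 4 gene lists (y axis, CPM) in cells with 0, 1, 2, 3 to 4, 5 to 9 and at least 10 Cxcl9 and Cxcl10 UMIs (x axis) in PyMT-M and PyMT-N, with exact 95% Poisson intervals. Antiviral genes, GTPases and MHC class I were highest in the last bin of each library, and pan-endothelial genes showed no such order.

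Levels of Rsad2, Ifit2, Iigp1 and Vcam1, which are single genes and not a fixed list, differed with the chemokine that a positive cell carried. In PyMT-M, Rsad2 stood at 178 CPM in cells with Cxcl9 alone, 608 CPM in cells with Cxcl10 alone and 1211 CPM in cells with both. In PyMT-N these levels were 129, 1610.1 and 1488 CPM. The level with Cxcl9 alone was nearer to the reference level of 107 and 43.8 CPM than to that of the cells with both. Ifit2 stood at 119, 421 and 560.1 CPM in PyMT-M and at 48.3, 1557 and 594 CPM in PyMT-N. Iigp1 stood at 261, 670.0 and 873 CPM and at 137, 1309 and 819 CPM. Vcam1 stood at 42.9, 171 and 170.2 CPM and at 8.06, 153 and 70.7 CPM, and with Cxcl9 alone its intervals held the reference levels of 51.4 and 16.2 CPM.

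Other genes did not split in this way. Irf7 stood at 502, 374 and 722 CPM in PyMT-M and at 440.0, 301 and 435 CPM in PyMT-N in cells with Cxcl9 alone, Cxcl10 alone and both. Irf8 stood at 152, 46.7 and 220 CPM and at 159, 164 and 174 CPM. MHC class I summed to 14687, 12466 and 16314 CPM in PyMT-M and to 10379, 9397 and 10452 CPM in PyMT-N, all above the reference levels of 10274 and 6002 CPM. Cells with Cxcl10 alone numbered 7 in PyMT-M, and their summed G2/M phase level was 2961 CPM against 835 CPM in reference cells. Cells with both chemokines also had more chemokine UMIs, with medians of 13 in PyMT-M and 23 in PyMT-N. Cells with Cxcl9 alone had medians of 4 and 6, and cells with Cxcl10 alone 4 and 12.5. The part of chemokine number in these levels was not tested.

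**Figure D5:**
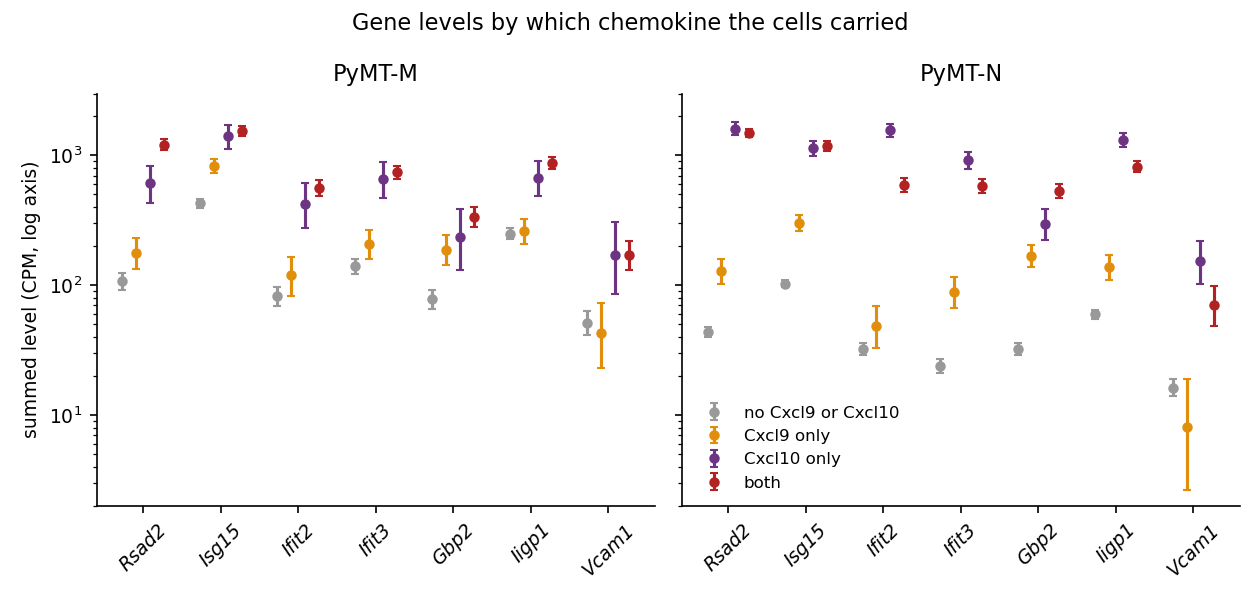
Summed level (y axis, CPM, log axis) of 7 genes in reference cells and in positive cells with Cxcl9 alone, Cxcl10 alone and both, in PyMT-M and PyMT-N, with exact 95% Poisson intervals. Rsad2 and Ifit2 were lower in cells with Cxcl9 alone (Rsad2 178 and 129 CPM) than in cells with both chemokines (1211 and 1488 CPM).

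The positive cells of both libraries were closer to each other than the reference cells were in antiviral, GTPase and MHC class I genes, but not in interferon and Jak-Stat signaling genes. For the 29 antiviral genes, the median log2 difference, PyMT-M minus PyMT-N, was 0.38 in positive and 1.36 in reference cells. For the 10 GTPases it was 0.11 and 1.31, and for the 19 class I genes 0.34 and 0.76, beside 0.00 and 0.03 over all ranked genes. For the 16 signaling genes it was -0.08 in positive and -0.04 in reference cells. Rsad2 had a log2 difference of -0.21 (-0.36 to -0.06) in positive and 1.29 in reference cells. Ifit3 had 0.38 (0.19 to 0.58) and 2.55. The larger positive-to-reference ratios of PyMT-N thus came with lower reference levels. Reference cells were less deep in PyMT-M, at 4642 UMIs for the median cell, than in PyMT-N, at 12447.5. A lack of chemokine UMIs therefore says less of a PyMT-M cell. Reference cells were not chosen at equal depth in both libraries, so how far depth entered their interferon levels was not tested.

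Single genes with at least 100 UMIs over the positive cells of both libraries were ordered by their difference between libraries. Most of the 10 at the ends of this order reached that number through the library where they were high, and had 3 to 29 UMIs in the other. Ifi27l2a had a log2 difference, PyMT-M minus PyMT-N, of 6.23 in positive (5.17 to 7.56, 302 against 7 UMIs) and 4.75 in reference cells, Ccl2 4.78 (3.86 to 5.86) and 3.78, and Chga 3.28 (2.70 to 3.90) and 3.78. Serpinb1a, an intracellular protease inhibitor, had 3.31 (2.71 to 3.95) and 1.74, and C1qtnf9 2.87 (2.16 to 3.66) and 2.53. In the other direction, 2610307P16Rik had -3.87 (-4.64 to -3.20) and -5.05. Ptn, which encodes pleiotrophin, had -3.79 (-5.44 to -2.53) with 5 against 121 UMIs in positive cells, and -4.52 in reference cells. Arhgap6 had -3.50 (-5.16 to -2.23) and -2.79, and the potassium channel Kcnj8 -3.26 (-4.41 to -2.29) and -3.92. With 1 library for each line these differences were not tested.

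The promoters of the higher genes held the ISRE letters often. A window was found for 36 of the 46 genes at least 2-fold higher in both libraries, and 16 of these (44.4%) held the ISRE letters on either strand. Of the 3486 ranked genes with a window, 140 (4.02%) held them, as did 3.46% of all 27025 genes with a window. A gene with several starts counted once if any of its windows held the letters. Of all 32851 windows of this length, 2.98% held the ISRE and 7.02% the GAS letters. Of the 20 highest genes, 18 had a window and 11 (61.1%) held the letters. The GAS letters TTCNNNGAA were found for 6 of the 36 genes (16.7%), for 6.74% of ranked genes with a window and for 8.13% of all genes with one. Of the 10 lower genes, 8 had a window, and none held either motif. These shares describe letters in 250 bases, and the genes were chosen by their ratios. Some genes are close copies whose matches lie in nearly the same sequence. These are Ifit3 and Ifit3b, Apol9a and Apol9b, and Ifi213 and Ifi206. Each was counted as a gene of its own, so the genes with a match are not all independent. Of the 46 higher genes, 23 had fewer than 100 UMIs in the reference cells of at least 1 library. The motif share was not taken without these genes.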

How the data were processed

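The authors deposited raw UMI counts per gene and barcode, made with Cell Ranger 8.0.0 from 10x 3′ libraries and filtered to cell barcodes; the build in the submitters' processing notes is mm39. The enzyme for dissociation is collagenase I per the labels, but collagenase II with dispase II in the study's methods. Each condition had 1 library of 3 pooled tumors, so no test was run. Counts were summed over positive and reference cells of each library and divided by their total (CPM). Log2 ratios have exact 95% intervals of a ratio of Poisson counts, shares exact binomial intervals and the difference of shares a square-and-add interval; UMIs of 1 cell are not independent, so these cover counting error only. A gene was ranked with at least 100 UMIs over positive and reference cells in each library, and past the fold at 2-fold in both.

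Named were the 20 highest and 10 lowest ranked genes by the ratio of the library where it was smaller, 5 each way between libraries among genes with at least 100 UMIs in positive cells, Cxcl9, Cxcl10 and Rsad2, extreme members of each gene list, and members of the chemokine, Jak-Stat, checkpoint and other-cell lists. Genes named outside this rule were chosen after their values were seen. Members and the 33 lists were chosen with earlier results of these data known. Scrublet (scanpy 1.11.5) called 1 barcode (0.0128%) in PyMT-M, where the caller did not work, and 138 (1.98%) in PyMT-N; no barcode was removed. On counts simulated as Poisson for 4360 genes, intervals held the true ratio for 96.0% in the PyMT-M and 95.5% in the PyMT-N simulation. The intervals assume Poisson counts too, and the simulation left out the spread between cells. It therefore checks the computation only and not how well the intervals cover the real counts. Python 3.11.15, numpy 2.4.6, scipy 1.17.1 and pandas 2.3.3 were used. Alternatives covered the gate, the limit for positive cells, depth, scaling, the gene minimum and the fold. Cells with other UMIs were taken by their markers and served only as background.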

Additional observations from a re-analysis of the deposited data

Results flagged for a closer look

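In 15 results the positive cells were above their reference cells in one library and below them in the other, with counting intervals that excluded equality in both; the difference between libraries was not tested, since each condition had 1 library. Values are log2 ratios of positive over reference cells in PyMT-M and then PyMT-N.

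Among gene lists, the T-cell chemokines other than Cxcl9 and Cxcl10 stood at -0.49 and 0.52. In PyMT-N 1 cell held 95.7% of the Ccl5 UMIs, and without the cell with most of the list's UMIs the value turned to -0.68, so that the opposite direction rested on 1 cell. Immediate early and stress genes stood at -0.084 and 0.12, tip cell genes at 0.15 and -0.070, basement membrane and matrix genes at 0.11 and -0.074, and glycolysis genes at 0.19 and -0.048. With positive cells cut at 5 UMIs, immediate early and stress genes stood at -0.0056 and 0.040. In PyMT-N tip cell genes then stood at -0.0088, basement membrane and matrix genes at -0.0065 and glycolysis genes at -0.11. Lymphatic genes stood at 1.23 and -0.73, and all 18 Ccl21a UMIs of the PyMT-M positive cells lay in 1 cell. Without the cell with most of the list's UMIs the PyMT-M value was 0.32, and with positive cells cut at 5 UMIs it was 0.40. Erythrocyte and platelet genes stood at 5.23 and -2.48, and in PyMT-M 1 positive cell held most of their UMIs.

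Among single genes, Cldn5, the claudin of endothelial tight junctions, stood at 0.83 and -0.16. Gpihbp1, which anchors lipoprotein lipase in capillaries, stood at 0.49 and -0.11, and Aplnr, the apelin receptor, at -0.66 and 0.41. The immediate early genes Fos and Jun stood at -0.71 and 0.38 and at -0.25 and 0.33. Nfkbia, the inhibitor of NF-kB, stood at 0.46 and -0.16, the matrix protein Sparc at 0.19 and -0.12, and the glycolytic enzyme Gapdh at 0.20 and -0.11.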

How the results depend on the processing

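The share of positive cells moved with their limit: at least 2 UMIs gave 25.8% in PyMT-M and 12.2% in PyMT-N, at least 5 UMIs 12.0% and 7.31% with a difference of 4.69 points, and at least 3 UMIs per 10000 UMIs 23.7% and 7.41% with a difference of 16.2 points. Thinning to 3000 UMIs gave 14.9% and 4.77%, and thinning to 5000 UMIs 6.05% in PyMT-N. PyMT-M had the higher share under each of these settings. The 46 higher genes became 25 at a minimum of 200 UMIs, 113 at 1.5-fold and 12 at 3-fold. The 10 lower genes became 28 at a minimum of 50 UMIs, 6 at 200 UMIs, 47 at 1.5-fold, 2 at 3-fold and 20 without the positive cell with most UMIs of each gene. With at least 100 UMIs in the reference cells alone, an alternative chosen after the data were seen, the higher genes became 23, all among the 46, of 3255 genes kept. Under the other settings the higher genes numbered 38 to 65 and the lower 7 to 14; with reference cells weighted to the depth of positive cells, 59 genes were higher, 45 of them among the 46. Of 829 summed values of gene lists under the other settings, 155 moved beyond their counting interval and 54 changed sign. Of the lists past 2-fold, B cells in PyMT-M reversed to 1.24 without cells with a myeloid UMI, and erythrocyte and platelet genes in PyMT-M reversed to -0.34 without the positive cell with most of their UMIs, also chosen after the data were seen. Under that setting 7 of 64 list values changed sign, among them the T-cell chemokines in PyMT-N, from 0.52 to -0.68, and G2/M genes in PyMT-N, from 0.38 to just under 0. Of 776 values of named genes, 66 moved beyond their interval and none changed sign. No paired analysis was possible because each condition had 1 library, and for the same reason no replicate could be left out. A median of 5280.5 UMIs per gated PyMT-M cell limits what can be said of genes with few UMIs.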

Other observations

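Summed cell cycle levels rested in part on single cells. Summed G2/M genes had a log2 ratio to reference cells of 0.09 (-0.04 to 0.23) in PyMT-M and 0.38 (0.26 to 0.49) in PyMT-N, and S phase genes 0.05 (-0.09 to 0.19) and 0.26 (0.14 to 0.38). Without the positive cell with most UMIs of each list, G2/M genes fell to -0.03 in PyMT-M and to just under 0 in PyMT-N, and S phase genes to -0.02 and 0.06, so that the PyMT-N ratios rested on 1 cell each. None of 8 ranked S phase genes was past 2-fold in both libraries, with median log2 ratios of 0.04 in PyMT-M and 0.29 in PyMT-N. None of 9 ranked G2/M phase genes was past 2-fold in both, with medians of -0.05 and 0.33. Cdk1, the kinase of mitotic entry, stood at 129 against 85.3 CPM in PyMT-M and at 72.9 against 49.6 CPM in PyMT-N. In cells with 3 to 4 chemokine UMIs the summed G2/M level was 1252 CPM in PyMT-M and 1403 CPM in PyMT-N, against 835 and 422 CPM in reference cells. At 5 to 9 UMIs it was 223 and 201 CPM, and at 10 or more 799 and 316 CPM. With positive cells cut at 5 UMIs, the PyMT-N ratios were -0.62 for G2/M and -0.38 for S phase genes.

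Angiogenesis and junction genes also held no member past 2-fold in both libraries. The 15 ranked angiogenesis genes had medians of 0.06 and -0.13. Vegfc, a ligand of Flt4 and Kdr, had log2 ratios of -0.93 (-1.39 to -0.49) and -0.81 (-1.18 to -0.46). Flt1, which was also part of the gate, had -0.45 and -0.46. The 10 ranked junction genes had medians of 0.00 and -0.09.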
